A study of Mus musculus with 6 samples.

Results

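Glycolysis, gluconeogenesis and glycogen genes were examined as a group of 43 genes, chosen by symbol with earlier results of these data known. A gene counted as measured where the annotation of the array gave a feature (a spot with 1 oligonucleotide) exactly 1 symbol from the group. By this rule 40 of the 43 genes were measured, on 66 features, out of 19087 genes with a symbol. Gpi1, Pfkfb1 and Eno1 were not analysed here. The RNAs came from MMH cells (Met murine hepatocytes), an immortalised line of mouse liver cells that the sample titles place at embryonic day 14. One RNA was from cells labelled MMH-Prox1 and the other from cells labelled MMH-pCDNA3.1, after an expression vector, so that both groups share the line and its immortalisation. Prox1 is a homeobox transcription factor of liver and lymphatic development. The labels do not say whether either line is 1 clone. Each of 6 two-colour arrays compared both RNAs, with Prox1 RNA in Cy5 on 3 arrays and in Cy3 on 3 others.

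Glycolysis splits glucose into pyruvate, gluconeogenesis runs the same path backwards through a few bypass enzymes, and glycogen is the store between both. Several steps are catalysed by different isoenzymes in different tissues. The adult hepatocyte is known for the glucose transporter GLUT2 (Slc2a2), the liver forms of phosphofructokinase, pyruvate kinase, glycogen synthase and glycogen phosphorylase, and the gluconeogenic enzymes, whereas most other and most dividing cells use ubiquitous, muscle or brain forms.

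Each feature was deposited as a score, a log-like ratio between the RNAs whose standard deviation (SD) equals 1 on every array. No score is a fold change, and differences are given in these SD units. The sources do not state the direction of the ratio. Positive scores likely mean higher with Prox1, since 1 of 3 Prox1 features stood at 5.44, 5.22, 5.17 and 6.60 on the 4 profiles, while the others stayed between −0.38 and 0.55. Every direction below rests on this. The 3 columns with Prox1 in Cy3 were identical in all 41230 features with a value and were counted as 1 profile, which left 4 profiles, called below the Cy5 arrays (Prox1 in Cy5) and the Cy3 profile (Prox1 in Cy3). The Cy5 arrays correlated with each other at r = 0.915 to 0.930 over features and with the Cy3 profile at r = 0.397 to 0.444. Features are not independent replicates. Calls come from a limma model with the dye orientation as a random block, with p-values adjusted over all 28617 genes and unnamed features tested. The block keeps the difference between orientations in the error. Separate cultures are not mentioned in the labels, so that p-values measure array spread only, possibly technical.

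Of the 40 measured genes 9 fell with Prox1 and 1 rose, and 30 did not pass an adjusted p of 0.05. The falls were Fbp2, Pklr, Pkm, Pfkl, Slc2a2, Aldoc, Pck2, Eno2 and Pgm1, and the rise was Pfkp. The 9 falls are 22.5% of the group, against 5.03% of all features tested, and the rise is 2.5%, against 3.38%. The median effect was −0.37 over the group and 0.04 over all features. Effects were below 0 in 33 of the 40 genes, against 12906 of all 28617 features. With the orientation as a fixed dye term, which takes its error from the Cy5 arrays alone, 19 genes were called lower (47.5%, against 19.7% of all features) and 4 higher (10%, against 25.3%). On simulated features without an effect the fixed dye term called 62.4%, and the random block 0.0%. The simulation gave the deviation between orientations the same SD for every feature, as the random block assumes. These rates therefore need not hold for the data. With each orientation averaged to 1 profile, limma called 0 of the 40 genes (12 had an unadjusted p under 0.05) and 0 of all features.

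**Figure D1:**
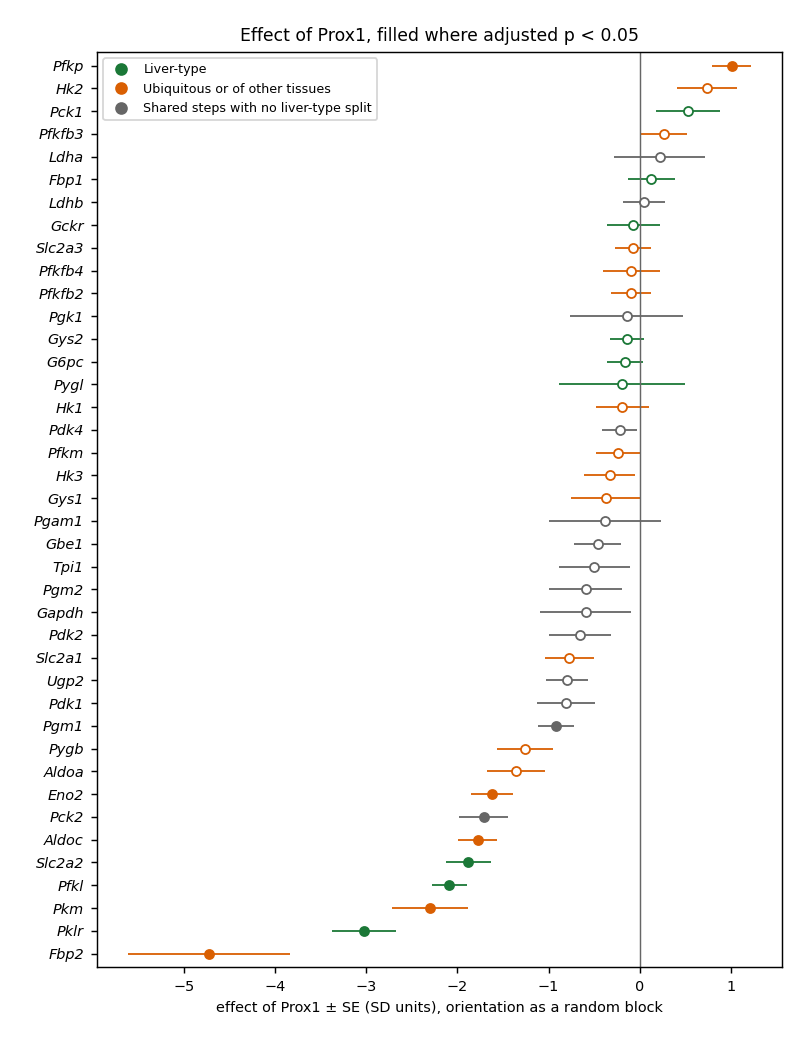
Effect of Prox1 (SD units, horizontal axis) with its standard error for each of the 40 measured genes, ordered by effect and coloured by isoenzyme class. Filled points passed the threshold of 0.05 on the limma adjusted p. Only Pfkp is filled to the right of 0, and Fbp2 has both the lowest effect and the widest error.

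Glucose enters cells through facilitative transporters, and it is trapped by hexokinases. The hepatocyte transporter gene Slc2a2 had scores of −1.73, −2.13 and −1.98 on the Cy5 arrays and −1.80 in the Cy3 profile. All 4 profiles were low, and the orientations overlapped. It fell by 1.88 ± 0.25 SD units (SE, 4 profiles; limma adjusted p = 0.01), and each of its 2 features passed (−2.49 ± 0.30 and −1.26 ± 0.25).

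The ubiquitous transporter gene Slc2a1 (GLUT1) had scores of −0.46, −0.24 and −0.52 on the Cy5 arrays and −1.20 in the Cy3 profile, an effect of −0.77 ± 0.27 that did not pass (limma adjusted p = 0.17). Slc2a3 (GLUT3), best known from neurons, lay between −0.21 and −0.02 in all profiles. Neither of these transporter genes passed.

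Of the hexokinase genes none passed. Hk2, the form typical of muscle and of many tumours, stood at 1.44, 1.31 and 1.12 on the Cy5 arrays but at 0.10 in the Cy3 profile (effect 0.74 ± 0.33, limma adjusted p = 0.29). Hk1, the most widespread form, was measured on 6 features, and its mean lay between −0.72 and −0.39 on the Cy5 arrays and at 0.26 in the Cy3 profile. Hk3 had an effect of −0.33 ± 0.28. Gckr, which encodes a regulatory protein of the liver, had one of −0.07 ± 0.29.

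Phosphofructokinase commits glucose to glycolysis, and it was a step where 1 isoenzyme gene fell and another rose. The liver form Pfkl, which other tissues also express, had scores of −2.05, −2.07 and −2.13 on the Cy5 arrays and −2.11 in the Cy3 profile. These 4 scores span less than the SE of the effect. Pfkl fell by 2.09 ± 0.19 (SE, 4 profiles; limma adjusted p = 0.0026), the smallest p of the group.

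The platelet form Pfkp had scores of 1.0, 0.81 and 0.87 on the Cy5 arrays and 1.14 in the Cy3 profile, so that all 4 profiles were above 0. It rose by 1.01 ± 0.21 (limma adjusted p = 0.037). The rise rests on the mean of 3 features at 0.70 ± 0.35, 0.82 ± 0.41 and 1.51 ± 0.34, none of which passed singly. It did not pass without Cy5 replicate 1, 2 or 3 (limma adjusted p = 0.088, 0.075 and 0.092). The muscle form Pfkm lay between −0.37 and −0.05, with an effect of −0.24 ± 0.24.

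Within each profile Pfkp scored above Pfkl by 2.88 to 3.25, and Pfkm scored above Pfkl by 1.71 to 2.02. These differences between genes are a description and were not tested. Of the PFKFB genes, whose bifunctional enzymes make and remove the activator fructose-2,6-bisphosphate, Pfkfb2, Pfkfb3 and Pfkfb4 had effects of −0.09 ± 0.22, 0.27 ± 0.25 and −0.09 ± 0.31. Pfkfb4 stood at 0.43 ± 0.12 with Prox1 in Cy5 (SD, n = 3 arrays) and at −0.70 in the Cy3 profile.

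**Figure D2:**
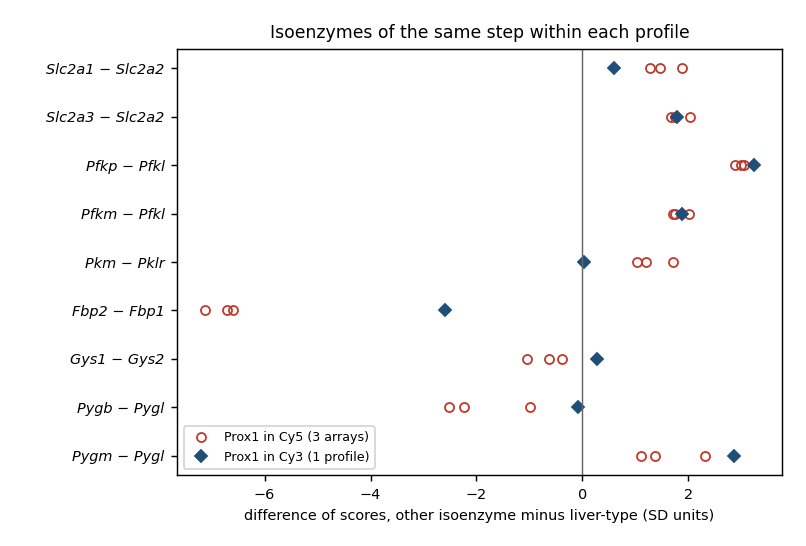
Difference of scores (SD units, horizontal axis) between an isoenzyme gene of other tissues and the liver-type gene of the same step, for the 9 pairs measured. Circles are the 3 Cy5 arrays and diamonds the profile with Prox1 in Cy3. The phosphofructokinase pairs lie to the right of 0 within narrow ranges, the Fbp2 and Fbp1 pair lies far to the left, and the Gys1 and Gys2 pair crosses 0.

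Between fructose bisphosphate and enolase, 2 of 7 measured genes fell, both of them forms known best from brain. Aldoc, which encodes brain aldolase, had scores of −1.55, −1.71 and −1.64 on the Cy5 arrays and −1.95 in the Cy3 profile. It fell by 1.78 ± 0.21 (limma adjusted p = 0.0061), but only 1 of its 2 features carried the fall (−3.45 ± 0.31, against −0.11 ± 0.24 for the other). The features of Aldoc thus disagreed, and the gene mean describes neither.

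Eno2, which encodes neuronal enolase, had scores of −1.97, −1.86 and −1.96 on the Cy5 arrays and −1.27 in the Cy3 profile. It fell by 1.62 ± 0.23 (limma adjusted p = 0.012), in each of 2 features (−1.70 ± 0.23 and −1.55 ± 0.28). Aldoa, the ubiquitous and muscle aldolase gene, scored −0.70, −0.86 and −1.04 on the Cy5 arrays and −1.92 in the Cy3 profile. All its profiles were low, and its effect of −1.36 ± 0.32 missed the threshold (limma adjusted p = 0.054).

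The remaining genes of this stretch have 1 main somatic form and stood on opposite sides of 0 in the 2 orientations, apart from Tpi1. Gapdh, which encodes the dehydrogenase of the pathway, scored 0.23, 0.25 and 0.66 on the Cy5 arrays and −1.72 in the Cy3 profile. The phosphoglycerate kinase gene Pgk1 scored 0.97, 0.98 and 1.41 against −1.61. The mutase gene Pgam1 scored 0.77, 0.37 and 1.12 against −1.69.

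In these 3 genes all Cy5 arrays were high and the Cy3 profile was low, without overlap. Their effects of −0.59 ± 0.50, −0.14 ± 0.62 and −0.38 ± 0.61 carry the wide errors that follow, and none passed. The triosephosphate isomerase gene Tpi1 scored 0.39, 0.04 and −0.14 on the Cy5 arrays and −1.18 in the Cy3 profile.

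**Figure D3:**
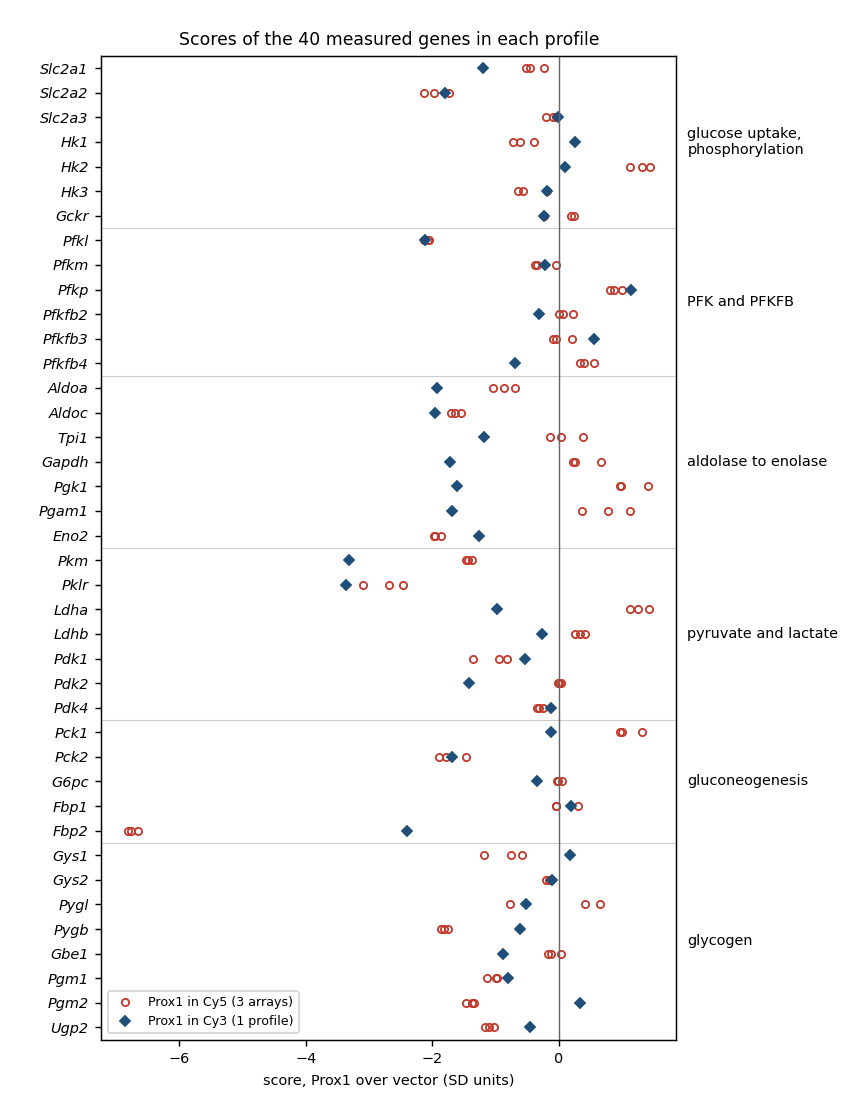
Score of each of the 40 measured genes (SD units, horizontal axis) in pathway order. Circles are the 3 Cy5 arrays and diamonds the profile with Prox1 in Cy3. Circles and diamonds coincide for Pfkl at about −2.1 and lie on opposite sides of 0 for Gapdh, Pgk1, Pgam1 and Ldha.

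At the last step of glycolysis both pyruvate kinase genes fell. Pklr, which encodes the liver and red cell enzyme, had scores of −3.09, −2.46 and −2.68 on the Cy5 arrays and −3.36 in the Cy3 profile. It fell by 3.03 ± 0.35 (limma adjusted p = 0.0062), at rank 240 from the bottom of 28617. Pkm, which encodes the muscle and embryonic forms, had scores of −1.37, −1.43 and −1.47 on the Cy5 arrays and −3.32 in the Cy3 profile.

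The orientations of Pkm did not overlap, and the Cy3 profile was the lower one. Pkm fell by 2.30 ± 0.42 (limma adjusted p = 0.027), with its 3 features at −2.87 ± 0.59, −2.45 ± 0.56 and −1.58 ± 0.23, of which the one at −2.45 missed the threshold singly (limma adjusted p = 0.053). The fall of Pkm did not pass without Cy5 replicate 1, 2 or 3 (limma adjusted p = 0.067, 0.072 and 0.079), whereas that of Pklr passed in each case. Pkm scored above Pklr by 1.03 to 1.72 on the Cy5 arrays and by 0.04 in the Cy3 profile, so that the isoenzymes did not part evenly.

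The promoters of both pyruvate kinase genes are shown because both isoenzyme genes of 1 step fell. RefSeq lists 2 starts for each gene, and the windows are those that held a searched motif. Searches covered both strands, and matches stand in capitals. The core of the hypoxia response element was searched as ACGTG. The E-box, which contains that core, was searched as CACGTG. A part of the HNF4 element was searched as CAAAGTCCA, and the HNF1 element was searched as well. The TATA box was searched as TATAAA. The windows run 5′ to 3′ on the strand of the gene, from 250 bases before to 50 after the start, in build GRCm38.p6 of RefSeq. Pklr lies at chr3:89136373-89136672 on the plus strand, with TATAAA 31 bases before the start.
Pklr: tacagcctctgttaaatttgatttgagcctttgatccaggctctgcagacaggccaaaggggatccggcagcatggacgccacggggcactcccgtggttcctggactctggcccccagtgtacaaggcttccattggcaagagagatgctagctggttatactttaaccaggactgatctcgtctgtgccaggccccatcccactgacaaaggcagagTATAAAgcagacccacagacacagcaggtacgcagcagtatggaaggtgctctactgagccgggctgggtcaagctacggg
Pkm lies at chr9:59656977-59657276 on the plus strand, with ACGTG on the opposite strand, 75 bases before and 8 after the start, so that the printed letters are its reverse complement.
Pkm: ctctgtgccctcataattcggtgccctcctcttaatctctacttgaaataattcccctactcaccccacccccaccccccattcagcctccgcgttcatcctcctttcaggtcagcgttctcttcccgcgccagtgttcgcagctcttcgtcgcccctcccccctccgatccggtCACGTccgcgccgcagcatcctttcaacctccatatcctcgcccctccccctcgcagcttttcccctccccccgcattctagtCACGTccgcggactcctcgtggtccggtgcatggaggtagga
TATAAA is in 13.6% of all 32851 promoter windows and ACGTG in 19.6%.

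Pyruvate is reduced to lactate by lactate dehydrogenase or admitted to mitochondrial oxidation by pyruvate dehydrogenase, which the PDK kinases inhibit. Ldha, the muscle-type subunit gene, scored 1.42, 1.26 and 1.12 on the Cy5 arrays and −0.98 in the Cy3 profile, the same split as Gapdh, Pgk1 and Pgam1. Ldhb, the heart-type subunit gene, scored 0.25, 0.41 and 0.33 against −0.27. Neither had an effect past the threshold (0.22 ± 0.50 and 0.05 ± 0.23).

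Of the kinase genes, Pdk1 had an effect of −0.81 ± 0.32 (limma adjusted p = 0.22), with 1 of 2 features past the threshold at −1.35 ± 0.26. Pdk2 stood between −0.01 and 0.04 on the Cy5 arrays and at −1.42 in the Cy3 profile. Pdk4, a gene induced by fasting in many tissues, lay between −0.34 and −0.12 in all profiles.

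The lowest fitted effect of the group was that of a gluconeogenic gene that is not liver-type, although Pklr and Pkm were lower than it in the Cy3 profile. Fbp2, the muscle-type fructose-bisphosphatase gene, had scores of −6.65, −6.76 and −6.82 on the Cy5 arrays and −2.40 in the Cy3 profile. All 4 profiles were low, and the orientations were far apart. Fbp2 fell by 4.73 ± 0.89 (limma adjusted p = 0.029), at rank 63 from the bottom of 28617 features, with 1 feature measured. The fall did not pass without Cy5 replicate 1, 2 or 3 (limma adjusted p = 0.076, 0.078 and 0.084).

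Fbp1, the liver form of the same enzyme, had scores of −0.05, −0.04 and 0.31 on the Cy5 arrays and 0.20 in the Cy3 profile, on both sides of 0. Its effect was 0.13 ± 0.26 (limma adjusted p = 0.94). Fbp2 scored below Fbp1 in 4 of 4 profiles, with differences from −7.13 to −2.60. The genes are neighbours on chromosome 13 with 0 annotated genes between them, in the assembly GRCm38.p6.

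The promoters of this neighbouring pair are shown because 1 gene fell far and the other did not pass. Fbp2 lies at chr13:62858351-62858650 on the minus strand, and holds CACGTG, with ACGTG inside it on both strands, from 42 bases before the start of the gene.
Fbp2: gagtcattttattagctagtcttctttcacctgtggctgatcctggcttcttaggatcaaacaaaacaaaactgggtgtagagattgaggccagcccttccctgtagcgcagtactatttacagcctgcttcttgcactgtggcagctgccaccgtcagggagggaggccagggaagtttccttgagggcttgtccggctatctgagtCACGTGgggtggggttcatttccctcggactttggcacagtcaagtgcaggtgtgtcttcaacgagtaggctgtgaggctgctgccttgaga
Fbp1 lies at chr13:62888233-62888532 on the minus strand, and none of the letters searched occurred.
Fbp1: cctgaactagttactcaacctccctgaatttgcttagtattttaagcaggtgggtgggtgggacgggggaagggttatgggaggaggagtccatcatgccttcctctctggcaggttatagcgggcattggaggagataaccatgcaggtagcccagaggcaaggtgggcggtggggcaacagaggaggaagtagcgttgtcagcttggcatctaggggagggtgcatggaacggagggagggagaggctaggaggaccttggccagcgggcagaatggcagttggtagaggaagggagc
CACGTG is in 7.15% of all promoter windows, and the absence of letters from a window says nothing of the factors that act there.

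Of 38 measured genes with a promoter in the table, 21 (55.3%) held ACGTG in at least 1 window, against 21.8% of all 27025 genes there. They were 4 of the 10 genes that passed (Aldoc, Fbp2, Pgm1 and Pkm), while Slc2a1, Hk2, Gapdh, Pgk1, Pgam1 and Ldha were among the others. By window it was 25 of 54 (46.3%), against 19.6% of all 32851 windows. The windows were not matched for base composition. CACGTG was in 6 of the 38 genes (15.8%, against 8.09% of all genes), and TATAAA in 5 (13.2%, against 15.7%). The HNF4 and HNF1 letters were in 0 of the 38 and in 0.555% and 0.0111% of all genes, too few to read anything from their absence. A match is a description of letters and not a site.

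Of the enzymes that make phosphoenolpyruvate, the mitochondrial one fell and the cytosolic one did not pass. Pck2, the mitochondrial carboxykinase gene, had scores of −1.79, −1.46 and −1.90 on the Cy5 arrays and −1.69 in the Cy3 profile, with overlapping orientations. It fell by 1.71 ± 0.27 (limma adjusted p = 0.017), and without Cy5 replicate 1 the adjusted p was 0.052. Pck1, the hormone-regulated cytosolic gene, scored 0.97, 1.32 and 1.0 on the Cy5 arrays and −0.12 in the Cy3 profile (effect 0.53 ± 0.35, limma adjusted p = 0.53).

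G6pc, which encodes the glucose-6-phosphatase that releases glucose from the liver, stood within −0.03 to 0.05 on the Cy5 arrays and at −0.35 in the Cy3 profile. Its effect was −0.16 ± 0.20. Of the 5 gluconeogenic genes, then, the 3 that hepatocytes are best known for (Pck1, Fbp1 and G6pc) did not pass.

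Among the 8 glycogen genes all effects were below 0, against 12906 of all 28617 features, but only 1 passed. Pgm1, a phosphoglucomutase gene that links glucose 6-phosphate and glucose 1-phosphate, had scores of −0.99, −1.13 and −0.98 on the Cy5 arrays and −0.80 in the Cy3 profile. It fell by 0.92 ± 0.20 (limma adjusted p = 0.045). The call is close to the threshold, since it was lost with quantile normalization between the profiles (limma adjusted p = 0.054) with features fitted singly (0.063), and without Cy5 replicate 1, 2 or 3 (limma adjusted p = 0.11, 0.09 and 0.1).

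Ugp2, which makes the UDP-glucose for glycogen, scored −1.10, −1.16 and −1.02 on the Cy5 arrays and −0.46 in the Cy3 profile (effect −0.80 ± 0.23, limma adjusted p = 0.10). The muscle glycogen synthase gene Gys1 scored −0.58, −0.75 and −1.19 on the Cy5 arrays and 0.17 in the Cy3 profile, with an effect of −0.37 ± 0.38. The liver gene Gys2 lay between −0.20 and −0.11 in all profiles, with an effect of −0.14 ± 0.19. Neither synthase gene passed. The branching enzyme gene Gbe1 had one of −0.46 ± 0.26, and Pgm2 one of −0.59 ± 0.40.

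The phosphorylase genes, whose enzymes release glucose 1-phosphate from glycogen, differed in their scores, and those in the group did not pass. Pygb (brain) scored −1.82, −1.87 and −1.75 on the Cy5 arrays and −0.62 in the Cy3 profile, an effect of −1.26 ± 0.31 (limma adjusted p = 0.062). Pygl (liver) scored 0.41, 0.65 and −0.77 against −0.52, the widest spread of the group on the Cy5 arrays (SD 0.76, n = 3). Pygm (muscle), which is not in the group, scored 1.79, 1.76 and 1.55 against 2.34 and rose by 2.0 ± 0.25 (limma adjusted p = 0.0079).

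By isoenzyme class, 3 of 9 liver-type genes (33.3%) fell (Pfkl, Pklr and Slc2a2) and 0 rose, against 5.03% lower and 3.38% higher among all features. The other 6 were Gckr, Pck1, G6pc, Fbp1, Gys2 and Pygl. Of 17 genes of ubiquitous forms or forms of other tissues 4 (23.5%) fell (Pkm, Aldoc, Eno2 and Fbp2) and 1 (5.88%) rose (Pfkp). Of 14 genes of steps without a liver-type split 2 (14.3%) fell (Pck2 and Pgm1). The median effects were −0.16, −0.33 and −0.54 in that order, and the classes were not tested against each other. All 4 profiles had the same sign for 4 of 9 liver-type genes, 12 of 17 genes of the second class and 5 of 14 of the third (44.4%, 70.6% and 35.7%, against 41.8% of all features).

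The 3 liver-type genes that fell belong to glucose uptake, phosphofructokinase and pyruvate kinase, with effects from −3.03 to −1.88. The effects of the 6 that did not pass lay between −0.19 and 0.53, and the difference between these genes was not tested. Of the 8 pairs of group members that could be compared, the ubiquitous or tissue-specific gene scored above the liver-type gene in 4 of 4 profiles in the pairs Slc2a1 and Slc2a2, Slc2a3 and Slc2a2, Pfkp and Pfkl, Pfkm and Pfkl, and Pkm and Pklr. It scored below in 4 of 4 in the pairs Fbp2 and Fbp1 and Pygb and Pygl, although Pygb and Pygl differed by only −0.09 in the Cy3 profile. Pairs that share Slc2a2 or Pfkl are not independent of each other, and 3 of the 4 profiles have the same orientation. Gys1 and Gys2 differed in sign between the orientations.

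The 2 dye orientations differed past the threshold in 21 of the 40 genes (52.5%, against 39.1% of all features). In 10 of them (25%, against 23.1%) the orientations had opposite signs. The share with opposite signs is near the background. Of the 21 differences 14 had the Cy5 arrays above the Cy3 profile, against 5988 of the 11194 differences over all features. These 14 included Gapdh (by 2.10), Pgk1 (2.73), Pgam1 (2.45), Tpi1 (1.28), Aldoa (1.05), Ldha (2.24) and Pkm (1.90). The other 7, against 5206 of the 11194, included Fbp2 (−4.34), Pgm2 (−1.74), Pygb (−1.20) and Eno2 (−0.66). The dye cannot be told apart from any other difference between the orientations. These include the isolation of RNA, since the labels give a phenol-based reagent for replicate 4, 1 of the 3 samples with the identical Cy3 column, and a column kit for the other samples. The error of this test comes from the Cy5 arrays alone. Pfkl, Pck2, Slc2a2, Pklr, Aldoc, Pgm1 and Pfkp passed for Prox1 without a passing difference between orientations.

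**Figure D4:**
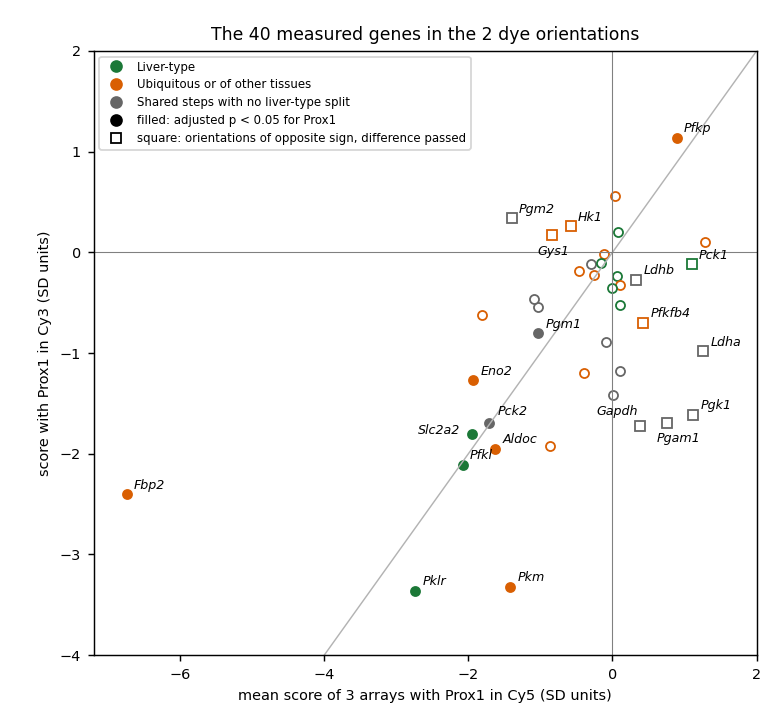
Mean score of the 3 arrays with Prox1 in Cy5 (horizontal axis, SD units) against the score in the Cy3 profile (vertical axis, SD units) for the 40 measured genes, coloured by isoenzyme class. The grey line marks equal scores, filled points passed for Prox1, and squares are the 10 genes whose orientations differed past the threshold with opposite signs. Pfkl, Pck2 and Slc2a2 lie close to the line, and Pgk1, Pgam1, Gapdh and Ldha lie in the lower right.

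Of 80 further measured genes of the pathway 5 rose and 4 fell, which is 6.25% higher and 5% lower, against 3.38% and 5.03% of all features, with a median effect of −0.03. Among 14 relatives of the enzymes Pdk3, another pyruvate dehydrogenase kinase gene, rose by 1.14 ± 0.22. Among 14 transport genes Bsg fell by 3.79 ± 0.21 (limma adjusted p = 0.00078) and Slc2a9, a urate transporter gene of the GLUT family, fell by 1.12 ± 0.24. Bsg encodes basigin, the chaperone of the lactate transporters, whose genes Slc16a1 and Slc16a3 had effects of −0.38 and −0.26 and did not pass.

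Of 6 genes around pyruvate dehydrogenase, Dld rose by 1.12 ± 0.18. Of 19 further glycogen genes only Pygm passed, and of 4 genes of fructose and galactose use none did. In the pentose phosphate pathway Pgd fell by 1.76 ± 0.20 (limma adjusted p = 0.0054) and Rpe rose by 1.21 ± 0.21, among 7 genes. Of 16 regulators Myc, a transcription factor known to activate glycolytic genes, rose by 2.93 ± 0.21 (limma adjusted p = 0.0013). Hnf4a, a nuclear receptor required for hepatocyte differentiation, fell by 2.96 ± 0.19 (limma adjusted p = 0.00097). Hif1a, the hypoxia-inducible factor gene, and Mlxipl, the gene of the glucose-sensing factor ChREBP, had effects of −0.50 and 0.55 and did not pass.

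The ratios hold no levels, so that the presence of cell type markers could not be checked. Of 9 hepatoblast and hepatocyte markers 4 fell (Alb at −5.17 ± 0.54, Krt8 at −3.55 ± 0.42, Hnf4a, and Cdh1 at −2.11 ± 0.34) and 0 rose. Effects of the 9 ranged from −5.17 to 0.42. The 2 above 0 were those of the hepatoblast markers Dlk1 (0.42 ± 0.36) and Afp (0.33 ± 0.28), which did not pass. Both had opposite signs in the orientations (Dlk1 1.11 as Cy5 mean and −0.39 in the Cy3 profile, Afp 0.75 and −0.17). Krt18, low in all 4 profiles, had an effect of −2.32 ± 0.71 and did not pass (limma adjusted p = 0.12). Of 4 cholangiocyte markers Krt19 fell (−3.47 ± 0.63), while Sox9 had an effect of 0.53 ± 0.28 and did not pass. None of 6 stellate cell and fibroblast, 5 endothelial, 3 leukocyte and 5 erythroid markers passed, with effects from −1.30 to 0.42. In bulk RNA fewer cells of a type and less RNA per cell cannot be told apart, and the part of these markers in the falls above was not tested. Hhex, named in the labels, had an effect of −1.13 ± 0.26 (limma adjusted p = 0.052).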

How the data were processed

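The members and gene lists were chosen with earlier results of these data known. RNA was isolated with a column kit (with a phenol-based reagent for replicate 4), amplified by PCR short of saturation, and dyed, per the labels' protocols. Amplification can distort ratios. The authors deposited 1 score per feature and array, a signed log-like ratio with an SD of 1 in each column. The sources used here do not give the log base, background correction or normalization. No signal intensities were used, so signal over background is unknown, and the number of arrays limits the precision. Column medians were 0.060, 0.055, 0.058 and −0.020, and scores were kept as deposited.

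Of 44290 features 41230 had a value. Of these 31700 had 1 symbol, 47 several and 9483 none in the platform annotation. Features with 1 symbol were averaged per gene (19087 genes), which gave 28617 rows. Each row was fitted in limma 3.58.1 (R 4.3.3) with an intercept and the orientation as a random block (correlation 0.793 by duplicateCorrelation), with Benjamini-Hochberg adjustment and a threshold of 0.05. The fixed dye term that suits a dye swap was an alternative, because its error leaves out the difference between orientations. The fits were tested on simulated scores, with normal deviations between orientations of the same SD for every feature, as the random block assumes. In the data the difference between orientations varied by gene, for example 0.02 for Pfkl and −4.34 for Fbp2. The simulated rates therefore do not give the error rate of a single gene or of these data. Of features without an effect the random block called 0.0% and the fixed dye term 62.4%. Of simulated effects of 2 and 4 SD units the random block called 5% and 52%. The fixed dye term called 100% of both. With 4 profiles, a gene that did not pass may still differ. The difference between orientations was tested as the dye coefficient. Leaving out 1 Cy5 array used the same correlation, since 3 profiles cannot give one. Named are every measured member, and from the other lists up to 4 genes per group that passed, by smallest p. Outside this rule Slc16a1, Slc16a3, Hif1a, Mlxipl, Dlk1, Afp, Krt18 and Sox9 are named, which did not pass, and Hhex from the labels. The isoenzyme pairs with Pfkfb1 were not analysed here.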

Additional observations from a re-analysis of the deposited data

Results flagged for a closer look

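In 10 of the 40 genes the scores differed between the dye orientations past the threshold (limma dye coefficient). The error of this coefficient comes from the Cy5 arrays alone. In each of the 10 genes the 3 Cy5 arrays had the opposite sign to the Cy3 profile. The share of 25% is near the 23.1% of all features. Differences are Cy5 mean minus Cy3 score. The 4 largest differences were those of Pgk1 (2.73, from 1.12 to −1.61), Pgam1 (2.45, from 0.76 to −1.69), Ldha (2.24, from 1.26 to −0.98) and Gapdh (2.10, from 0.38 to −1.72), with limma adjusted p = 0.0013, 0.0033, 0.0011 and 0.0023. Pck1 (1.22), Pfkfb4 (1.13) and Ldhb (0.60) were higher with Prox1 in Cy5 as well. Pgm2 (−1.74), Gys1 (−1.01) and Hk1 (−0.83) were lower with Prox1 in Cy5. Which orientation describes the cells better was not tested.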

How the results depend on the processing

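With all choices varied one at a time, the 10 called genes had the same sign under each alternative. Higher and lower calls over all features went from 967 and 1439 to 7232 and 5647 with a fixed dye term, 3423 and 3446 without a term for the orientation, 9909 and 6872 from the Cy5 arrays alone, 1704 and 1969 with all 6 columns counted singly, and 0 and 0 with each orientation averaged (3975 unadjusted p under 0.05, smallest adjusted p = 0.088). Without 1 Cy5 array they were 385 to 453 and 845 to 935. Among the members, calls went from 1 higher and 9 lower to 4 and 19 with a dye term, 2 and 13 without a term, 9 and 19 on the Cy5 arrays alone, 0 and 0 with orientations averaged (12 unadjusted p under 0.05), 0 higher on single features, and 0 and 5 to 6 without 1 array. Pfkp, Pkm, Fbp2 and Pgm1 were lost with each array left out and Pck2 without replicate 1. Liver-type genes had 1 higher call with a dye term and on the Cy5 arrays alone, and 0 lower with orientations averaged. Genes of ubiquitous or other forms had 3, 2, 0, 3 and 0 higher calls with a dye term, without a term, with orientations averaged, on the Cy5 arrays alone and on single features, 7, 0 and 10 lower with a dye term, with orientations averaged and on the Cy5 arrays alone, and 0 higher and 2 lower without any 1 array. Members not past the threshold changed sign as follows. On the Cy5 arrays alone Gckr was at 0.06, Pfkfb2 0.10, Pfkfb4 0.43, Tpi1 0.10, Gapdh 0.38, Pgk1 1.12, Pgam1 0.76, Pdk2 0.01, G6pc 0.00 and Pygl 0.10. Of these Pfkfb4, Gapdh, Pgk1 and Pgam1 passed as higher there (limma adjusted p = 0.006, 0.029, 0.00053 and 0.0074). Without a term Pfkfb4 was at 0.15, Pgk1 0.44 and Pgam1 0.14. Without 1 Cy5 array Gckr ranged from −0.12 to 0.00 and Pygl from −0.34 to 0.03. Single features of Slc2a3, Pfkfb2 and Pgk1 stood at 0.34, 0.19 and 0.04. The cause was not tested. Centring and quantile normalization changed the calls of 2 members, Aldoa (gained with centring) and Pgm1 (lost with quantiles). No paired analysis was possible because the orientations share no replicate numbers.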
